A study of Rattus norvegicus with 10 samples.

Results

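The annexin family was examined in M2 macrophages sorted from rat spleen. The members were taken by name, as the annexin genes Anxa1 to Anxa7 and Anxa11, and all 8 were found among the 9003 genes with a value. No row of the table belonged to any of the 4 other annexin genes looked for (Anxa8, Anxa9, Anxa10 and Anxa13). RNA was sequenced from 10 libraries of WKY/NCrj rats in 4 groups. The control group (n = 2) came from rats without nephritis. The GN group (n = 2) came from rats with glomerulonephritis, induced by TF78, a mouse monoclonal antibody against the glomerular basement membrane. The EV+ (n = 3) and EV- (n = 3) groups both came from nephritic rats that had also received human adipose-derived mesenchymal stem cells (ASCs) intravenously. The ASCs had been stained with the membrane dye DiD, and macrophages that carried the dye were sorted as EV+ and those without it as EV-. The EV- cells are thus dye-negative cells of ASC-treated animals, not cells of untreated animals. The nephritis model used female rats of 7 to 12 weeks; the age of the control rats and the day on which the sequenced cells were taken are not given in the sources used here. The sources speak of biological replicates but do not tie each library to an animal, so that p-values measure the spread between these libraries.

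Annexins are proteins that bind acidic phospholipids of membranes when calcium rises. They share a conserved core and differ in their N-terminal ends, through which they bind partners such as S100 proteins. In macrophages they are known for roles in ending inflammation (annexin A1), plasminogen activation at the cell surface (annexin A2), binding of exposed phosphatidylserine (annexin A5), and traffic and repair of membranes.

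The values are TMM-normalized CPM, counts scaled by library size and by a factor for RNA composition. The libraries held 19270515 to 26617093 reads on the analysed genes, and 3 reads, taken as the detection limit, were worth 0.113 to 0.153 CPM. Every annexin lay far above this limit, from 646 reads for Anxa1 to 31988 reads for Anxa2. The lowest level of any member was 31.5 CPM (Anxa1, EV+ replicate 2) and the highest was 1280 CPM (Anxa2, EV- replicate 1). These levels are not scaled by transcript length and were not compared between genes. Differences were tested on log2(value + 1) with limma in a fit of all 10 libraries, and a gene was called at a Benjamini-Hochberg FDR under 0.1 over all 9003 genes.

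The labelled cell type was checked against its markers. Csf1r (5800 to 8155 CPM), Cd68 (1163 to 1466 CPM) and Adgre1 (1025 to 1491 CPM), genes of the monocyte and macrophage lineage, were high in all libraries. Cd163 and Mrc1, which mark M2 macrophages, were at 0 to 1.81 CPM each, and Vcam1 and Spic, genes of red pulp macrophages, did not exceed 8.74 and 6.82 CPM. The cells are called M2 macrophages here only as the label of the sort. The 11 genes of NK and T cells measured of 14 listed summed to 1031 CPM in EV- replicate 1, 363 and 364 CPM in the other EV- libraries and 222 to 353 CPM in the other groups. Cd8a made up most of this sum outside EV- replicate 1 and was not set apart there (333 CPM, against 330 CPM in EV+ replicate 3). Prf1 (perforin) was at 334.5, 51.4 and 24.5 CPM in the EV- libraries and at most at 18.4 CPM elsewhere. Gzma (granzyme A) was at 49.95, 5.61 and 4.12 CPM in the EV- libraries and at most at 2.34 CPM elsewhere. Both were thus highest in EV- replicate 1 and higher in all EV- libraries than in the rest, as were Gzmb, Nkg7, Ccl5 and Cd3e. Klrd1, Lck, Ncr1 and Cd2 were also highest in EV- replicate 1. In EV- replicate 3 they did not exceed all libraries of the other groups.

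Across the 4 groups, 1 of the 8 annexins was called, Anxa3 (adjusted p = 0.0229). The other adjusted p-values ranged from 0.394 for Anxa6 to 0.990 for Anxa2. Of all genes, 2.57% were called in this test. A miss of this threshold does not show that a level stayed within the spread of replicates. Anxa6 had an unadjusted p of 0.0419 in the same limma test. The Anxa11 libraries did not overlap between any of the 4 groups, as for 0.233% of all genes.

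**Figure D1:**
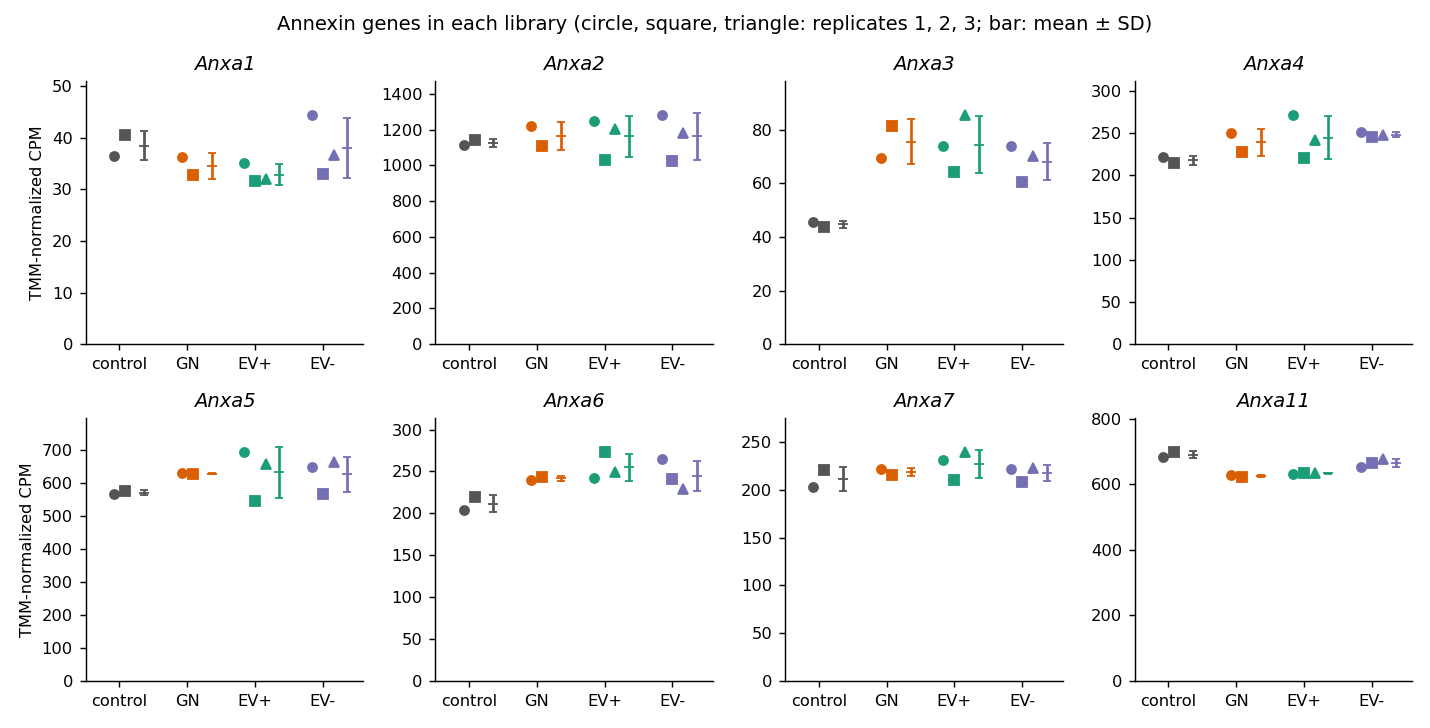
Level of each annexin gene (vertical axis, TMM-normalized CPM, from 0) in the control, GN, EV+ and EV- libraries, with symbols for replicates 1, 2 and 3 and a bar for the mean and SD. Anxa3 is the member in which the control libraries (43.9 and 45.6 CPM) lie furthest below the 8 libraries of nephritic rats (60.6 to 85.4 CPM).

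Anxa3 is a small annexin known from neutrophils and monocytes, in which it associates with granules. Its level was 45.6 and 43.9 CPM in the control libraries and 69.6 and 81.5 CPM in the GN libraries. It was 74.1, 64.2 and 85.4 CPM in the EV+ libraries and 73.9, 60.6 and 70.1 CPM in the EV- libraries. Every nephritis library therefore exceeded both controls, and the 3 nephritis groups overlapped each other.

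In GN macrophages, Anxa3 was 1.67-fold higher than in control (log2 difference 0.74, SE 0.139, 95% interval 0.44 to 1.04, adjusted p = 0.0181). In this comparison 1.75% of all genes were called, and Anxa3 was the only annexin among them. Anxa3 was 1.64-fold higher in EV+ macrophages than in control (log2 difference 0.72, SE 0.127, adjusted p = 0.00776) and 1.51-fold higher in EV- macrophages (log2 difference 0.59, SE 0.127, adjusted p = 0.0320). Of all genes, 3.63% were called in EV+ against control and 2.84% in EV- against control. The 3 comparisons share the same 2 control libraries and are not independent of each other. With all 8 nephritis libraries set against the 2 control libraries, a contrast added after the data were seen, the log2 difference was 0.68 (SE 0.111, adjusted p = 0.00380), and the exact two-sided permutation p over the 45 splits was 0.0222, the smallest that this design allows. Of all genes, 4.27% were called in that contrast. Both p-values treat the 8 nephritis libraries as independent. Same-numbered EV+ and EV- libraries were taken as paired, so both may be too small.

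Between the nephritis groups, Anxa3 did not pass the test. Its log2 difference was -0.024 for EV+ against GN (95% interval -0.30 to 0.25, adjusted p = 0.982) and -0.15 for EV- against GN (95% interval -0.42 to 0.13, adjusted p = 0.855). It was 0.12 for EV+ against EV- (95% interval -0.12 to 0.37, adjusted p = 0.9997). EV+ was the higher in 3 of 3 same-numbered pairs, as for 13.7% of all genes, and a fit of the EV libraries alone with the replicate block gave an adjusted p of 0.753. The order of the means was control (44.7 CPM), EV- (68.2 CPM), EV+ (74.6 CPM) and GN (75.6 CPM), of which only the step from control to the rest exceeded the spread.

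The call in EV+ against control stayed under 0.1 when any single library was left out (adjusted p from 0.00290 to 0.0982). The call in GN against control was lost without control replicate 2 (adjusted p = 0.125) or GN replicate 2 (adjusted p = 0.255), where the log2 difference was 0.71 and 0.63. The call in EV- against control was lost without control replicate 1 (adjusted p = 0.149), control replicate 2 (adjusted p = 0.229) or EV- replicate 1 (adjusted p = 0.112), the library with the most NK and T cell transcripts; without that library the log2 difference was 0.53. Without the intensity trend in the variances, the calls in GN and in EV- were lost (adjusted p = 0.130 and 0.128).

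Since bulk RNA was measured, a higher level per cell and a larger share of cells with the transcript cannot be told apart. Markers of other myeloid cells were therefore read beside Anxa3. The 9 neutrophil genes measured of 15 listed summed to 566 to 573 CPM in control, 626 to 707 CPM in GN, 717 to 737 CPM in EV+ and 674 to 757 CPM in EV-. This sum was carried by Csf3r (528 to 723 CPM). In control, GN, EV+ and EV-, the mean of Camp was 8.74, 10.98, 10.92 and 10.96 CPM. In the same order, that of Ngp was 0.349, 1.18, 1.01 and 0.720 CPM, and that of Mmp8 was 0.136, 0.465, 0.729 and 0.394 CPM. Cebpe and Cxcr2 had lower means in every nephritis group than in control. S100a8 (1.34 to 3.39 CPM), S100a9 and Mmp9 were higher in some nephritis groups and lower in others. Mpo, Elane, Lcn2, Ltf, Retnlg and Olfm4 had no row in the table. The 5 monocyte genes measured of 8 listed summed to 550 to 551 CPM in control, 609 to 615 CPM in GN, 603 to 689 CPM in EV+ and 533 to 612 CPM in EV-. Among them, Cd14, a co-receptor for bacterial lipopolysaccharide, was higher in GN than in control (log2 difference 0.65, adjusted p = 0.0998) and in EV+ than in control (log2 difference 0.75, adjusted p = 0.0180). Vcan, a monocyte proteoglycan, had a log2 difference of 1.54 in GN against control (adjusted p = 0.0674) at levels of 0 to 3.28 CPM. The 13 macrophage genes measured of 16 listed summed to 8449 to 8929 CPM in control and to 9571 to 11020 CPM in the nephritis libraries. Most of this sum was Csf1r, Cd68 and Adgre1. The means of Csf1r and Adgre1 were higher in every nephritis group than in control. That of Cd68 was 1345 CPM in control, 1247 CPM in GN, 1343 CPM in EV+ and 1289 CPM in EV-. In the same order, the mean of Hmox1, a heme-degrading enzyme, was 238, 200.1, 170 and 180 CPM, and that of Vcam1 was 4.76, 7.43, 2.30 and 1.99 CPM. The 2 erythroid genes measured of 6 listed (Hbb and Hba1) summed to 1.19 to 1.61 CPM in control and to 3.28 to 7.26 CPM in the nephritis libraries. The 5 B cell genes of 8 summed to 320 to 463 CPM and the 3 stromal genes of 9 to 159 to 213 CPM over all libraries, and the 5 dendritic cell genes of 8 to 25.7 to 38.3 CPM. None of the 6 platelet genes listed had a row in the table. The part of these shifts in the Anxa3 difference was not tested.

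Of the 9003 genes, 7177 had a mean of at least 5 CPM and were ranked by their correlation with each annexin over the 10 libraries. Anxa3 was most like Ptgs1, the constitutive cyclooxygenase of prostaglandin synthesis (Pearson's r = 0.976), then Cst7, a cysteine protease inhibitor of immune cells (r = 0.966), and Galk1, a galactose kinase (r = 0.959). The rank order of the 10 libraries was the same for Ptgs1 as for Anxa3 (Spearman's rho = 1). Ptgs1 was at 30.7 and 28.4 CPM in control, 78.3 and 86.7 CPM in GN, 80.8, 69.7 and 102 CPM in EV+ and 78.5, 66.6 and 78.4 CPM in EV-. Its log2 difference in GN against control was 1.45 (adjusted p = 4.35e-04), that of Cst7 was 1.19 (adjusted p = 0.00304), and that of Galk1 was 0.92 (adjusted p = 0.0343). These correlations describe libraries that share a group structure, and the points of a group are not separate evidence of likeness.

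**Figure D2:**
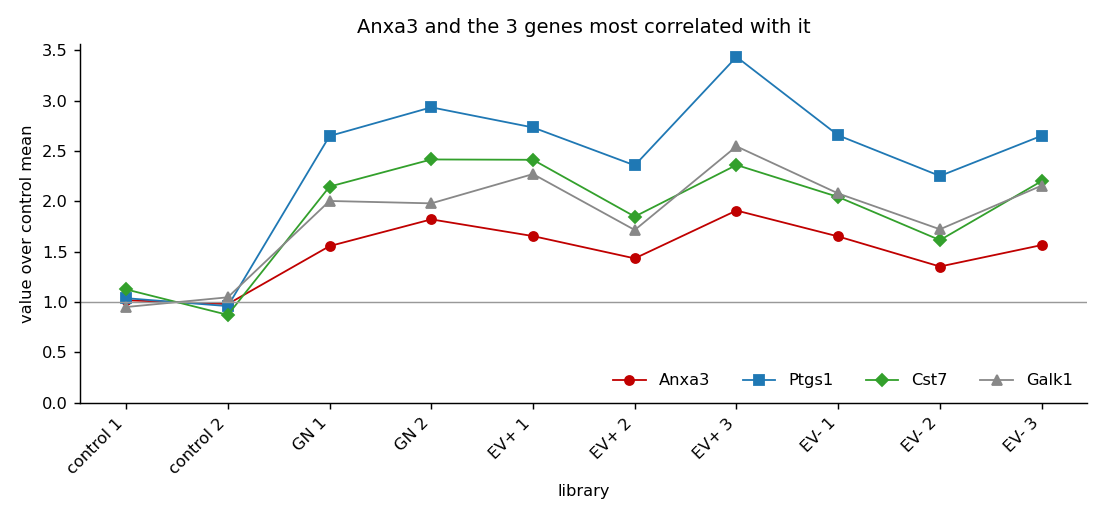
Anxa3, Ptgs1, Cst7 and Galk1 in each of the 10 libraries, as the ratio of the normalized value to the mean of the 2 control libraries (vertical axis, from 0). All of them rise from control to GN, and in both the EV+ and the EV- group replicate 2 is the lowest; in the nephritis libraries Ptgs1 has the largest ratios and Anxa3 the smallest.

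The promoter of Anxa3 is shown because it belongs to the annexin that was called, and that of Anxa11 because its groups separated in the opposite direction. Promoters of 300 bases, from 250 bases before to 50 bases after the transcription start, were taken from RefSeq on the build GRCr8, which is not the rn6 build to which the reads were aligned. Of the 8 members, 7 had a promoter there; Anxa6 had none. The Anxa3 promoter is at chr14:13085548-13085847 on the minus strand and the Anxa11 promoter at chr16:1419484-1419783 on the plus strand. Capitals mark the GC box (GGGCGG, or CCGCCC where it lies on the other strand) and the core of PU.1-type ETS sites (AGGAAG, or CTTCCT on the other strand).
Anxa3: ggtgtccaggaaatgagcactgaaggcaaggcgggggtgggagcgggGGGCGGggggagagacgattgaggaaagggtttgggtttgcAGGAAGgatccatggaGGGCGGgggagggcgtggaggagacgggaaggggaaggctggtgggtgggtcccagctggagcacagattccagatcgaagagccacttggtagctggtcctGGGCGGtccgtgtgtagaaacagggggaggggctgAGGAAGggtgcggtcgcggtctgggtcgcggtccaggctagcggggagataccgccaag
Anxa11: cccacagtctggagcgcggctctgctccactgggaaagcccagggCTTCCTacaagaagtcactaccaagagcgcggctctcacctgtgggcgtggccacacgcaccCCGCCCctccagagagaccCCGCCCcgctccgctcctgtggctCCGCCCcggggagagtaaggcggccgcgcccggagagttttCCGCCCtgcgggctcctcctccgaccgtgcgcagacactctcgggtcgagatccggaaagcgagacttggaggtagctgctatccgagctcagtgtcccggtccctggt

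The Anxa3 promoter holds 3 GC boxes, which begin at positions -203, -146 and -44 from the start, and 2 AGGAAG matches at -162 and -9. PU.1 is a factor of the myeloid lineage, and a match of these letters is a description and not a binding site. Its GC content was 65.3%, against a median of 51.7% for all promoters. The Anxa11 promoter holds 4 GC boxes and 1 AGGAAG match, and its GC content was 68.0%. Both strands of all 7 annexin promoters and of 33469 promoters in all were searched. The latter were not matched to the annexins by kind of gene or by expression, so the shares are no like-for-like background. The GC box was in 6 of 7 annexin promoters (all but Anxa1) and in 33.1% of all promoters, and AGGAAG was in 2 of 7 (Anxa3 and Anxa11) and in 34.5%. The AP-1 letters TGANTCA were in 1 of 7 (Anxa2) and in 7.33%, the TATA box TATAAA was in 2 of 7 (Anxa1 and Anxa2) and in 14.2%, and CCAAT was in 2 of 7 (Anxa4 and Anxa7) and in 37.5%. The letters TGTTCT, to which the glucocorticoid receptor binds, was in 0 of 7 and in 20.7%.

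Anxa1, the glucocorticoid-regulated annexin that acts on formyl peptide receptors, did not pass the test in any comparison. Its level was 36.4 and 40.5 CPM in control, 36.3 and 32.8 CPM in GN, 35.2, 31.5 and 31.9 CPM in EV+ and 44.3, 32.9 and 36.6 CPM in EV-. The EV+ libraries all lay below both controls, whereas the EV- group spanned them. The highest value of Anxa1 was in EV- replicate 1, the library with the most NK and T cell transcripts; the part of those transcripts was not tested. The log2 difference was -0.15 for GN against control (95% interval -0.46 to 0.16, adjusted p = 0.798), -0.22 for EV+ against control (95% interval -0.50 to 0.063, adjusted p = 0.470) and -0.027 for EV- against control (adjusted p = 0.960). For EV+ against EV- it was -0.19 (95% interval -0.45 to 0.060, adjusted p = 0.9997), and -0.079 without EV- replicate 1. EV+ was the lower in 3 of 3 same-numbered pairs, as for 14.3% of all genes, and the fit of the EV libraries alone with the replicate block gave an adjusted p of 0.677.

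The genes known to respond to glucocorticoids, of which all 12 listed were measured, were set beside Anxa1. Dusp1, a phosphatase that switches off MAP kinases, fell by 1.13 on the log2 scale in EV+ against control (adjusted p = 1.30e-04) and by 1.14 in EV- against control (adjusted p = 1.47e-04), and by 0.63 in EV- against GN (adjusted p = 0.0633). In EV+ against GN its log2 difference was also -0.63 (adjusted p = 0.129), and in GN against control it was -0.51 (adjusted p = 0.114). Both were called under the replicate block (adjusted p = 0.0210 and 0.0214), with DESeq2 (adjusted p = 4.07e-04 and 0.0132) and with the likelihood-ratio test of edgeR (adjusted p = 0.00228 and 0.0327). Klf6, a zinc finger factor, was lower in EV+ than in control (log2 difference -0.52, adjusted p = 0.0577). The other 10 were not called by limma in the 6 comparisons between groups, although 10 of the 12 had an unadjusted p under 0.05 in at least 1 of them. The share of all genes with a call or such a p in at least 1 of the 6 was not counted. Counts pooled in this way, for this list and the others, thus have no background to be read against. DESeq2 and the likelihood-ratio test called 3 genes each, with Irs2, an insulin receptor substrate (log2 difference -0.51 in EV+ against control by both, adjusted p = 0.0581 and 0.0449). The list's median log2 difference in GN against control was -0.37 (median of all genes -0.0001). Its direction differed between comparisons. The median was 0.17 in EV+ against GN and 0.23 in EV- against GN. Against control it was -0.12 in EV+ and 0.036 in EV-, and for EV+ against EV- it was -0.039. With the replicate number as a block, 4 genes of the list were called, with Sgk1 (log2 difference -0.46 in GN against control, adjusted p = 0.0440) and Tsc22d3 (log2 difference -0.60, adjusted p = 0.0119) beside Dusp1 and Klf6. This block also matches control with GN libraries by number, and no source shows those to be pairs. Under the same block Tsc22d3 was higher in EV+ than in GN (log2 difference 0.57, adjusted p = 0.0495) and higher in EV- than in GN (log2 difference 0.60, adjusted p = 0.0312). Of the 12 genes listed for annexin A1 and A2 receptors and the plasminogen system, 4 were measured (Plaur, Plgrkt, Tlr2 and Tlr4) and 0 were called; 2 of these (Plgrkt and Tlr2) had an unadjusted p under 0.05 with limma in a comparison, and edgeR and DESeq2 also called 0. The receptors Fpr1 and Fpr2 had no row in the table.

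S100a11, the calcium-binding partner of annexin A1, was lower in EV+ macrophages than in control. It was at 140 and 173 CPM in control, 87.1 and 110 CPM in GN, 116, 63.8 and 102 CPM in EV+ and 108, 95.6 and 127 CPM in EV-. All 8 nephritis libraries lay below both controls, as for 6.73% of all genes. The log2 difference was -0.77 in EV+ against control (SE 0.202, adjusted p = 0.0690), -0.67 in GN (adjusted p = 0.248) and -0.51 in EV- (adjusted p = 0.292). The call in EV+ was lost without control replicate 1 (adjusted p = 0.141), control replicate 2 (adjusted p = 0.481), EV+ replicate 2 (adjusted p = 0.110) or EV+ replicate 3 (adjusted p = 0.122). It was also lost without the intensity trend (adjusted p = 0.218) and with only the groups compared in the fit (adjusted p = 0.189). S100a11 was the only one of the 11 listed binding partners, all measured, that limma called in the 6 comparisons between groups. In EV+ against control, 3.63% of all genes were called. DESeq2 called 2, S100a11 also in GN against control (log2 difference -0.68, adjusted p = 0.0692) and Lamp1 (log2 difference 0.24 in GN against control, adjusted p = 0.0491). In the contrast of all nephritis libraries with control, Lamp1, a lysosomal membrane protein, was also called (log2 difference 0.20, adjusted p = 0.0936), beside S100a11 (log2 difference -0.65, adjusted p = 0.0720).

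Anxa2, which forms a complex with S100a10 that binds plasminogen and actin, was at 1112 and 1142 CPM in control, 1221 and 1110 CPM in GN, 1250, 1031 and 1206 CPM in EV+ and 1280, 1024 and 1183 CPM in EV-. All 4 groups overlapped, and replicate 2 was the lowest in both EV groups. GN and control differed by 0.047 on the log2 scale (95% interval -0.19 to 0.28, adjusted p = 0.930), and the difference was 0.0012 for EV+ against EV- (95% interval -0.19 to 0.19, adjusted p = 0.9997). S100a10 ranged from 245 to 382 CPM and had a log2 difference of 0.054 in GN against control (adjusted p = 0.959). RefSeq lists 8 pseudogenes of Anxa2. The sources used here do not say how reads shared with them were handled, so the level is less certain than that of the other members except Anxa7.

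Anxa5, the annexin used as a probe for phosphatidylserine on dying cells, was at 565 and 576 CPM in control and at 628 CPM in both GN libraries. It was at 693, 544 and 658 CPM in EV+ and at 648, 566 and 663 CPM in EV-. The GN libraries lay above both controls, while EV+ replicate 2 lay below them. Between GN and control the log2 difference was 0.14 (95% interval -0.092 to 0.37, adjusted p = 0.728), and it was 0.011 for EV+ against EV- (95% interval -0.18 to 0.20, adjusted p = 0.9997). Of the 10 genes listed for phosphatidylserine exposure, scramblases and flippases of the plasma membrane, 6 were measured and 0 were called by limma, edgeR or DESeq2, with 2 genes at an unadjusted p under 0.05 in limma.

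Anxa4, which binds and orders membranes and is best known from epithelia, was at 222 and 214 CPM in control, 250 and 228 CPM in GN, 271, 221 and 243 CPM in EV+ and 251, 246 and 248 CPM in EV-. The EV- libraries were close together and all above control, and EV+ replicate 2 fell between the controls. Against control, log2 differences were 0.13 for GN (adjusted p = 0.698), 0.16 for EV+ (adjusted p = 0.420) and 0.19 for EV- (95% interval -0.0012 to 0.37, adjusted p = 0.387).

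Anxa6, which carries a duplicated annexin core and acts in endosomal and cholesterol traffic, was at 204 and 219 CPM in the controls. Both GN libraries were higher, at 239.5 and 244 CPM. It was at 242, 273 and 249.1 CPM in EV+ and at 264, 241 and 229 CPM in EV-. All 8 nephritis libraries lay above both controls, and the 3 nephritis groups overlapped. The log2 difference was 0.27 in EV+ against control (SE 0.0832, 95% interval 0.087 to 0.44), which missed the threshold (adjusted p = 0.135). With DESeq2 on the recovered reads it passed (log2 difference 0.27, adjusted p = 0.0692, with 6% of all genes called). It also passed with the replicate number as a block (log2 difference 0.30, adjusted p = 0.0997), where 4.21% of all genes were called. That block matches control libraries to the others by number, and no source shows them to be paired. Over all alternatives the adjusted p ranged from 0.0692 to 0.282, and with 1 library left out from 0.109 to 0.412. Smaller log2 differences were found in GN against control, 0.19 (adjusted p = 0.497), and in EV- against control, 0.21 (adjusted p = 0.295). For all nephritis libraries against control it was 0.22 (adjusted p = 0.150 with limma and 0.0885 with DESeq2, which called 6.38% of all genes), with an exact permutation p of 0.0222, the smallest that 8 against 2 libraries allow. As for Anxa3, these p-values treat the 8 nephritis libraries as independent and may be too small. EV+ against GN differed by 0.075 (95% interval -0.10 to 0.25) and EV+ against EV- by 0.059 (95% interval -0.10 to 0.22). Of the 14 genes listed for membrane repair, 12 were measured and 0 were called by limma, edgeR or DESeq2, with 2 at an unadjusted p under 0.05 in limma.

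Anxa7 (synexin), which fuses membranes and binds sorcin, was at 203 and 221 CPM in control, 222 and 215.5 CPM in GN, 231, 211 and 239.6 CPM in EV+ and 222, 208 and 223 CPM in EV-. The groups overlapped throughout. GN exceeded control by 0.046 on the log2 scale (95% interval -0.14 to 0.23, adjusted p = 0.912) and EV+ exceeded EV- by 0.059 (95% interval -0.093 to 0.21, adjusted p = 0.9997). Its partner Sri (sorcin) had log2 differences of 0.12 in GN against control (adjusted p = 0.701) and 0.014 in EV+ against EV- (adjusted p = 0.9997). RefSeq lists 4 pseudogenes of Anxa7, with the same uncertainty as for Anxa2.

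Anxa11, which binds Pdcd6 and links RNA granules to lysosomes, was at 683 and 699 CPM in the controls. It was lower in GN, at 628 and 624 CPM. It was at 632, 634 and 634 CPM in EV+ and at 652, 667 and 678 CPM in EV-. The libraries of the 4 groups did not overlap at all, in the order GN, EV+, EV- and control, within a span of 1.12-fold from the lowest to the highest library. It was the only annexin with this separation, which 0.233% of all genes showed. None of its differences passed the test. It had log2 differences of -0.14 in GN against control (95% interval -0.29 to 0.0028, adjusted p = 0.492), -0.13 in EV+ against control (adjusted p = 0.366) and -0.054 in EV- against control (adjusted p = 0.782). For EV+ against EV- it was -0.071 (95% interval -0.19 to 0.047, adjusted p = 0.9997), and for EV- against GN it was 0.089 (95% interval -0.044 to 0.22, adjusted p = 0.799). The exact permutation p for EV+ against EV- was 0.1, the smallest for 3 against 3 libraries split without regard to pairs. The fit of the EV libraries alone with the replicate block gave an adjusted p of 0.726. Pdcd6, a calcium sensor, had log2 differences of 0.043 in GN against control (adjusted p = 0.925) and -0.011 in EV+ against EV- (adjusted p = 0.9997).

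**Figure D3:**
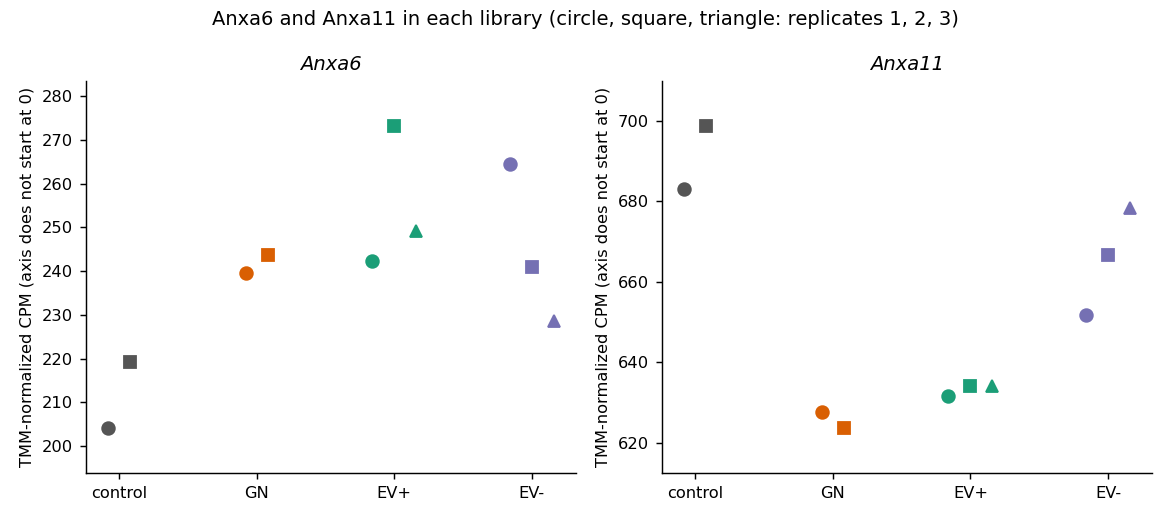
Anxa6 (left) and Anxa11 (right) in each library, in TMM-normalized CPM on axes that do not start at 0, with symbols for replicates 1, 2 and 3. Anxa6 lies above both controls in all 8 nephritis libraries (229 to 273 CPM), and the Anxa11 groups lie apart, with GN (624 to 628 CPM) and EV+ (632 to 634 CPM) lowest.

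Set side by side, Anxa3 was the only annexin called by limma in the fit of all 10 libraries without a block. Without regard to sign, the median log2 difference from control in GN was 0.141 for the 8 members and 0.135 for all genes. In EV+ it was 0.150 for the members and 0.144 for all genes, and in EV- 0.0913 and 0.133. The signed medians below are smaller where members moved in opposite directions. In GN against control, the median log2 difference of the 8 members was 0.089 (0.047 without Anxa3), and that of all genes was -0.0001. Libraries did not overlap for 4 members that were higher in GN (Anxa3, Anxa4, Anxa5 and Anxa6) and 2 that were lower (Anxa1 and Anxa11), but 21.9% of all genes were higher and 22% lower without overlap, since 2 libraries a group separate easily. In EV+ against control, 2 members were higher without overlap (Anxa3 and Anxa6; 14.9% of all genes) and 2 lower (Anxa1 and Anxa11; 15.6%). In EV- against control, 3 were higher (Anxa3, Anxa4 and Anxa6; 15% of all genes) and 1 lower (Anxa11; 14.1%). Over all nephritis libraries against control, Anxa3 and Anxa6 were higher (5.89% of all genes) and Anxa11 lower (6.73%).

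Between the nephritis groups, no annexin passed the test. In EV+ against GN, 0 of 8 members were called by limma, with 0 at an unadjusted p under 0.05, and 0.122% of all genes were called. The members' median log2 difference was 0.0090, and 1 member (Anxa11) was higher in EV+ without overlap, as were 11.2% of all genes. In EV- against GN, 0 were called, again with 0 at an unadjusted p under 0.05, and 0.378% of all genes were called; the median was 0.0049, and Anxa11 was again higher without overlap, as were 12.6% of all genes. In EV+ against EV-, the comparison of macrophages with and without transferred dye, 0 were called with 0 at an unadjusted p under 0.05, 0.0222% of all genes were called, the median was 0.0060, and Anxa11 was lower without overlap, as were 4.65% of all genes. Over the same-numbered pairs, Anxa7 was also higher in EV+ in 3 of 3, as Anxa3 was, and Anxa11 was lower in 3 of 3, as Anxa1 was. The other tools gave 0 calls in these comparisons as well. Over the 8 members, the 95% intervals of EV+ against EV- ran from -0.45 (Anxa1) to 0.37 (Anxa3) on the log2 scale. They come from the fit of all 10 libraries, which does not use the pairing taken for the EV libraries. The fit of the EV libraries alone with the replicate block gave adjusted p-values from 0.677 (Anxa1) to 0.997 (Anxa2). The widest interval was that of Anxa1 (SE 0.118) and the narrowest that of Anxa11 (SE 0.0552).

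**Figure D4:**
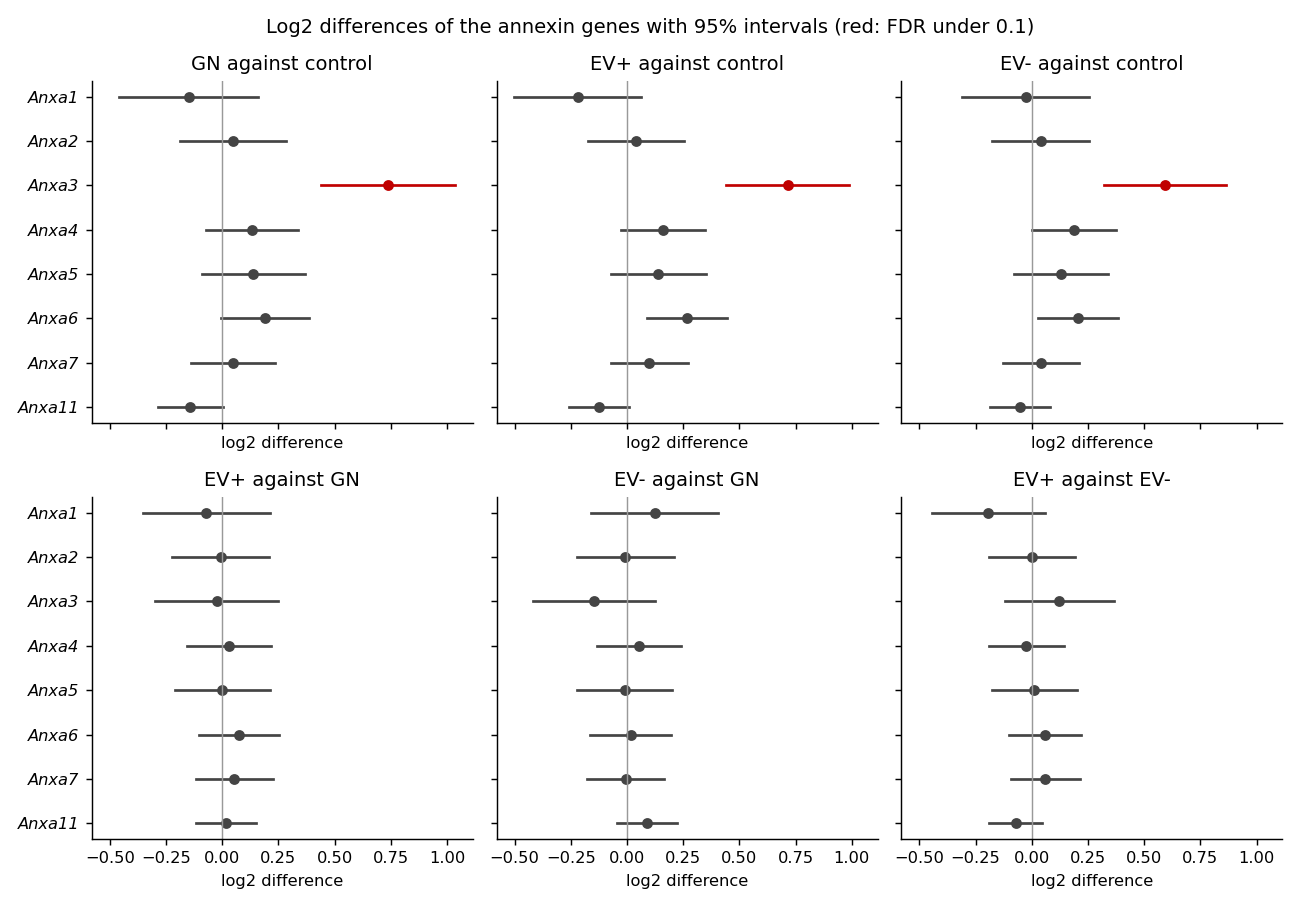
Log2 differences (horizontal axis) of the 8 annexin genes in 6 comparisons, with points for the estimate and lines for the 95% interval. Both are from limma without pairing of libraries, and red marks an FDR under 0.1. Anxa3 is red in the 3 comparisons with control (0.74, 0.72 and 0.59), and no member is red between the nephritis groups.

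Replicates of the EV groups varied together. In 6 of the 8 annexins (Anxa1, Anxa2, Anxa3, Anxa4, Anxa5 and Anxa7) replicate 2 was the lowest library in both EV+ and EV-, as it was for 20.5% of all genes. Anxa6 and Anxa11 did not follow this: for Anxa6, EV+ replicate 2 was the highest library of all. Across the 10 libraries, with group means removed, r was 0.88 between Anxa2 and Anxa5, 0.83 between Anxa1 and Anxa2, 0.82 between Anxa5 and Anxa7, and -0.54 between Anxa4 and Anxa6. With the groups included, Anxa3 and Anxa11 had r = -0.81. These values are descriptions over libraries that share groups and preparation.

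The genes most like the other members were found by the same ranking. For Anxa5 they were Cstb (r = 0.970), Camp (r = 0.952) and Ctsz (r = 0.952), of which Cstb and Ctsz are a cathepsin inhibitor and a cathepsin. For Anxa2 they were Slc35b2 (r = 0.952), Fam89b (r = 0.948) and Prdx2 (r = 0.926), and for Anxa7 they were Ndufb5 (r = 0.955), Cfp (r = 0.929) and Popdc2 (r = 0.924). For Anxa6 they were Llgl2 (r = 0.915), Parvb (r = 0.896) and Eif2a (r = 0.883), and for Anxa11 they were Kcmf1 (r = 0.916), Smc4 (r = 0.911) and Mon1a (r = 0.889). Anxa1 was most like Zc3h15 (r = 0.922), Rassf1 (r = 0.916) and Phf5a (r = 0.886), and Anxa4 was most like Tars (r = 0.896), Gapdh (r = 0.893) and B3gnt3 (r = 0.892). Of these leading genes, Kcmf1 had a log2 difference of -0.29 in GN against control (adjusted p = 0.275) and Llgl2 one of 0.52 in EV+ against control (adjusted p = 0.108), so neither was called.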

How the data were processed

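The authors aligned paired-end reads of the 10 libraries to rn6 with STAR (version 2.5.3), counted them on RefSeq genes with HTSeq (version 0.6.0), removed genes under 1 CPM in all libraries and applied TMM normalization in edgeR, and deposited the resulting normalized signal of 9003 genes. The libraries had been amplified from low input with SMART-Seq v4. All values were whole multiples of what 1 read is worth (100% within 0.01 read), so reads were recovered (19270515 to 26617093 per library); floors cover counting error only. Spreadsheet dates stood in place of 18 symbols, and those genes were not named.

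Groups came from the labels. log2(value + 1) was fitted with limma (version 3.58.1, R version 4.3.3) over the 4 groups, with an intensity trend, 6 residual degrees of freedom and Benjamini-Hochberg adjustment over all genes (FDR under 0.1). Intervals are limma's at 95%. The procedure was tested on simulated data. Alternatives were edgeR (version 4.0.16) quasi-likelihood and likelihood-ratio tests and DESeq2 (version 1.42.0) on recovered reads, RLE size factors, pseudocounts of 0.1 and 5, filters of 1 CPM in 2 libraries and of a mean of 5 CPM, no intensity trend, an FDR of 0.05, a replicate block, only the groups compared, and each library left out. Residuals of same-numbered EV+ and EV- libraries correlated (r = 0.203, 0.295 and 0.122, and -0.229 to -0.0129 for differently numbered ones). The numbers were thus taken to pair these libraries, from the data and not from the labels. Residuals are centered within each group, so these values are not independent. Control and GN, with 2 libraries each, give a single value (r = 0.0878), which cannot show whether they pair. The replicate block spanned all 4 groups and also matched control and GN by number. The replicates differed by 13.4 to 45.5 chi-square units per degree of freedom, so none was a copy of another.

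The members and gene lists were chosen with earlier results of these data known. Named genes were all 8 members, the partner genes called in any comparison between groups, fixed direct partners (S100a10, S100a11, Fpr1, Fpr2, Pdcd6 and Sri), and the 3 genes of at least 5 CPM most correlated with each member. Marker lists covered macrophages, neutrophils, monocytes, NK and T cells, B cells, dendritic cells, platelets, erythroid cells and stroma. Promoters were from RefSeq (GRCr8).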

Additional observations from a re-analysis of the deposited data

How the results depend on the processing

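Anxa3 was the annexin called in each comparison with control, and its direction there held under all alternatives run. Without the intensity trend the number of annexins called fell from 1 to 0 among the 4 groups, in GN against control (Anxa3 adjusted p = 0.130) and in EV- against control (adjusted p = 0.128); the cause was not tested. The number ranged from 0 to 1 with 1 library left out in each of these 3 tests. It rose to 2, with Anxa6, in EV+ against control under DESeq2 and under the replicate block, and to 2 in all nephritis groups against control under DESeq2. The called binding partners ranged from 0 to 1 and the called glucocorticoid response genes from 1 to 2 with 1 library left out. The replicate block gave 4 of the latter, and in settings added after the data were seen DESeq2 and the likelihood-ratio test gave 3 each. Without the intensity trend, 0 binding partners and 1 glucocorticoid response gene were called, and DESeq2 called 2 binding partners. The replicate block changed no other call of a member. Differences near 0 changed sign when 1 library was left out, none past the threshold. Anxa1 ranged from -0.14 to 0.00084 in EV+ against GN and -0.14 to 0.068 in EV- against control. Anxa2 ranged from -0.021 to 0.12 in GN against control, -0.075 to 0.077 in EV+ against GN, -0.081 to 0.080 in EV- against GN, -0.087 to 0.085 in EV+ against EV-, -0.015 to 0.12 in EV+ against control and -0.034 to 0.13 in EV- against control. Anxa3 ranged from -0.14 to 0.088 in EV+ against GN. Anxa4 ranged from -0.046 to 0.10 in EV+ against GN, -0.013 to 0.12 in EV- against GN and -0.10 to 0.047 in EV+ against EV-. Anxa5 ranged from -0.070 to 0.10 in EV+ against GN, -0.054 to 0.061 in EV- against GN and -0.060 to 0.11 in EV+ against EV-. Anxa6 ranged from -0.041 to 0.063 in EV- against GN. Anxa7 ranged from -0.014 to 0.11 in GN against control, -0.026 to 0.025 in EV- against GN and -0.020 to 0.10 in EV- against control. Under the replicate block, Anxa5 in EV+ against GN had a log2 difference of -0.038. In all, 1191 single-gene values kept their direction and side of the threshold under an alternative, 31 changed sign, 7 lost a call and 3 gained one. Of the summary values (counts of calls and medians), 337 stayed within a set tolerance and 23 moved beyond it. That tolerance does not check direction. With 2 libraries each in control and GN, an exact permutation test cannot go below p = 0.333. Depth did not limit the members, which had at least 646 reads per library.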
